A study of Mus musculus with 12 samples.

Results

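The genes described are 39 listed members of the type I interferon response, the set of genes that cells switch on after interferon alpha or beta binds its receptor. They were measured in mouse colorectal cancer tissue grown in fatty or in healthy liver. A member was taken from a row of the deposited table that the platform annotation pairs with its symbol alone, and where several such rows existed the brightest on average was used. This gave 35 of the 39 members a row of their own, out of 22180 genes with such a row. No row of the table was used for Ifi44, while Oas1a, Dtx3l and Ifi27l2a occurred only in rows shared with another gene and were not tested. All 35 passed the filter on low values, which asked for 3 or more arrays above a log2 value of 4.93, the table's median, and kept 13286 genes in all. Ifi35 and Lgals3bp had several rows. Mouse Ifit3 has a near-identical copy, Ifit3b, so the Ifit3 values are uncertain as to which copy they measure.

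Type I interferons act through the receptor chains Ifnar1 and Ifnar2 and the kinases bound to them, which phosphorylate Stat2. With Irf9 it takes part in a complex that binds a DNA element called the interferon-stimulated response element (ISRE) near the induced genes. The products include enzymes and binding proteins that block viral replication, the ubiquitin-like modifier Isg15 and its enzymes, sensors of foreign RNA and DNA, and regulators such as Irf7, which feeds back on interferon production. In tumours, interferon-induced transcripts are known from cancer cells as well as from macrophages, dendritic cells, lymphocytes and endothelium.

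There were 4 groups of 3 mice per the series' design text. They were tumours in fatty liver of mice given anti-VEGF, tumours in fatty liver of mice given vehicle, tumours in healthy liver of mice given anti-VEGF and tumours in healthy liver of mice given vehicle. Anti-VEGF, an antiangiogenic treatment, is directed at vascular endothelial growth factor. The sources used here do not give the mouse strain, the cancer cell line, the way the liver was made fatty, the antibody, the doses or the days. The number of arrays limits the precision, and in bulk tissue fewer cells of a type and less RNA per cell cannot be told apart.

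Several arrays touched the results below and are named here. The SD of the difference over all tested genes was at most 0.163 between vehicle arrays 1 and 3 of each liver and among the 3 anti-VEGF arrays of healthy liver, against 0.391 to 0.636 for the other pairs within a group, so the replicates may be fewer than labelled. The female-specific RNA Xist was 8.10 to 10.58 on vehicle arrays 1 and 3 of both livers and at most 4.32 on the other 8 arrays. Xist and treatment therefore cannot be told apart on those 4 arrays. Vehicle array 2 of healthy liver and anti-VEGF array 3 of fatty liver stood apart from the rest of their groups. The epithelial keratin gene Krt8 was 9.12 to 10.82 on all arrays, whereas Epcam, an adhesion molecule of most intestinal carcinomas, was at most 3.78 and below the limit on every array, so the labelled tissue was not borne out by that marker. Albumin (Alb), made by hepatocytes, was at most 4.07 and also below the limit throughout. Of the 15 listed hepatocyte genes, however, 4 passed the filter, Apoa1, Apoa2, Apoc3 and Ttr. Their mean on an array was 5.23 to 5.63, so liver RNA cannot be taken as absent.

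Promoter sequences of 29 of the 39 members were found in RefSeq on GRCm38.p6, in windows that run from 250 bases before to 50 bases after a gene's start. The ISRE core, searched on both strands as GAAA, any 2 bases and GAAA again, was present in the windows of 12 of these 29 members, 41.4%, against 3.99% of the 27025 genes with a window. The GAS core, the element of interferon gamma signalling, searched as TTCNNNGAA on both strands, was present for 7 of 29, 24.1%, against 9.55%. Some of these matches overlap each other. The stretches below are shown because they carry ISRE cores upstream of members that differed widely in how they varied over the groups. Isg15, Rsad2 and Oas3 passed the test between livers under both treatments, and Ifit1 and Bst2 passed under anti-VEGF and not under vehicle. Ifit3 passed under neither and hardly varied. Capitals mark the bases of ISRE core matches, in which the core reads either forward or as its reverse complement, and each stretch runs 5′ to 3′ along the gene's strand. The stretch of Isg15 is chr4:156200850-156200921 on the minus strand and holds 3 overlapping matches. That of Ifit1 is chr19:34640760-34640838 on the plus strand, and that of Rsad2 is chr12:26456538-26456597 on the minus strand. That of Oas3 is chr5:120777700-120777759 on the minus strand, that of Ifit3 is chr19:34583348-34583441 on the plus strand, and that of Bst2 is chr8:71537562-71537627 on the minus strand.
Isg15: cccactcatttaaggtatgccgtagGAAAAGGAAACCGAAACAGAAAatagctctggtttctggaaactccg
Ifit1: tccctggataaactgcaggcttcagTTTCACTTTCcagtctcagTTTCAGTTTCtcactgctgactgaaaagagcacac
Rsad2: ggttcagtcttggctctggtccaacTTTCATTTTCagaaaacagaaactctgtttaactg
Oas3: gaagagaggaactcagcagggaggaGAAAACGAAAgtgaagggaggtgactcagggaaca
Ifit3: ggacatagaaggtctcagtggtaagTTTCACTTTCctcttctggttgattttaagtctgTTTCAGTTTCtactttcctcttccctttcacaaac
Bst2: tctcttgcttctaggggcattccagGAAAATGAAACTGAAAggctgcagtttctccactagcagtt

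Several members are neighbours in the RefSeq gene order with no protein-coding gene between them. These are Rsad2 and Cmpk2 on chromosome 12, Parp14, Dtx3l and Parp9 on chromosome 16, Ifit2 and Ifit3 on chromosome 19, and Oasl2 with Oasl1 and Oas2 with Oas3 on chromosome 5. Under vehicle 5 of the 11 tested members with the core were higher in fatty liver, against 13 of the 15 tested members whose window lacked it, and under anti-VEGF the counts were 9 of 11 and 13 of 15. Of all genes tested, 19.2% were higher in fatty liver under vehicle and 18.2% under anti-VEGF. The window of Irf7 holds no match, which says only that these letters are not in this window.

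**Figure D1:**
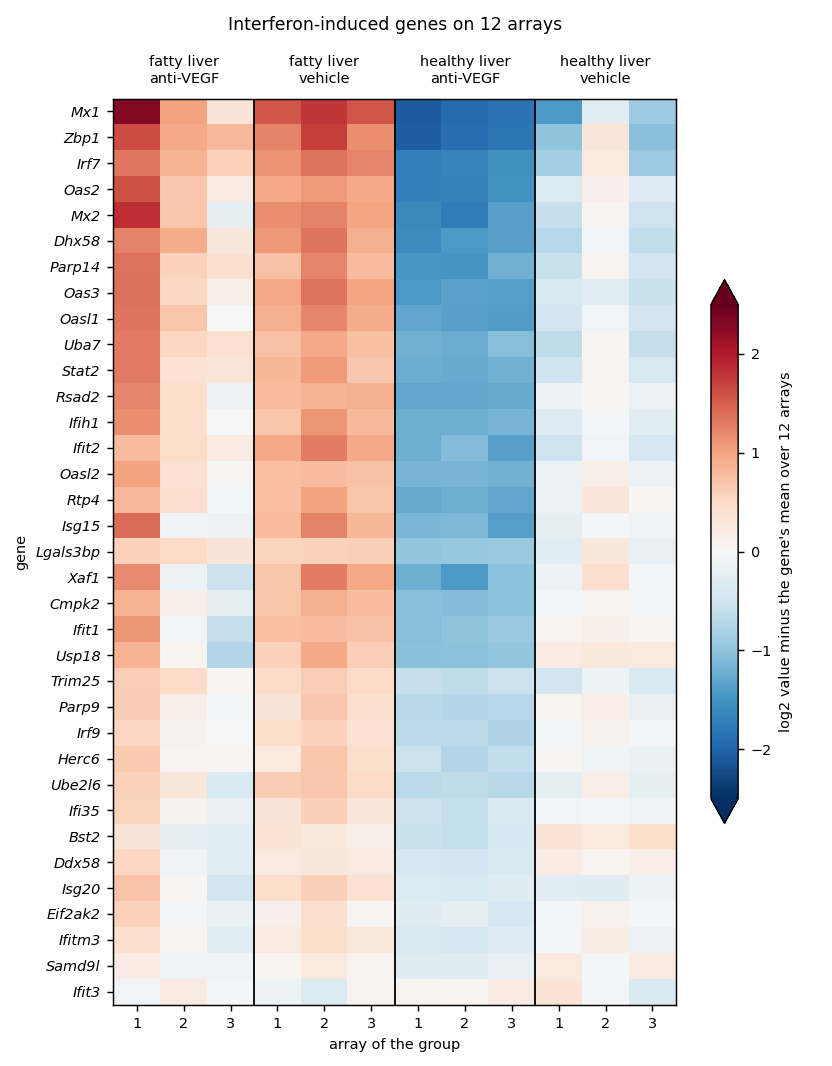
Heat map of the 35 tested interferon-induced genes (rows, ordered by the difference between livers under anti-VEGF) on 12 arrays (columns, 3 in each of 4 groups), with colour giving the log2 value minus the gene's mean over the 12 arrays. Most rows are highest on the fatty liver arrays and lowest on the 3 anti-VEGF arrays of healthy liver, array 1 of the fatty liver anti-VEGF group is the highest of its group for 34 genes, and Ifit3 at the bottom shows little variation.

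The first question was how the tumours differed between livers under vehicle. Interferon-induced genes of every functional group were among those higher in fatty liver: all tested transcription factors and oligoadenylate synthetases, most of the Isg15 system and of the sensors, and 6 of the 11 antiviral effectors. Of the 35 members 26 rose at an adjusted p below 0.05 in limma, 0 fell and 9 did not pass. Over all genes tested, 19.2% were higher and 30.4% lower at that threshold. The median log2 difference of the members was 0.80, with quartiles of 0.48 and 1.21, and that of all genes was -0.12. The groups did not overlap, fatty above healthy, for 31 of the 35 members and for 23.6% of all genes. At an unadjusted p below 0.05, 27 members were higher and 0 lower, against 21.6% and 35.4% of all genes.

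All 3 regulators rose. Irf7, the transcription factor that drives interferon alpha genes and is itself induced by interferon, was 11.65, 11.89 and 11.75 on the fatty liver vehicle arrays, against 9.67, 10.77 and 9.62 on those of healthy liver. Even the highest healthy liver array, array 2, stayed below the lowest of fatty liver, and the difference was 1.74 (SE 0.28, adjusted p = 0.000975). Stat2, which carries the activation domain of the ISRE-binding complex, was 10.26, 10.51 and 10.11 in fatty liver and 8.93, 9.51 and 9.03 in healthy liver, a difference of 1.13 (SE 0.25, adjusted p = 0.00456). Its partner Irf9, which gives the complex its DNA contact, had the smaller difference of 0.46 (SE 0.13, adjusted p = 0.0127), from 9.91, 10.02 and 9.83 in fatty liver against 9.40, 9.55 and 9.42 in healthy liver.

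The 4 tested oligoadenylate synthetase genes all rose, by 0.80 (Oasl2) to 1.51 (Oas3). Oas2 and Oas3 make the oligoadenylates that activate RNase L. Oas3 was 9.77, 10.15 and 9.77 in fatty liver and 8.40, 8.53 and 8.24 in healthy liver. Each fatty liver array lay more than 1 log2 unit above each healthy liver array.

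Of the 11 antiviral effectors 6 rose. Mx1, a GTPase that blocks influenza virus in mouse cells, had the largest difference of all members. It was 8.11, 8.35 and 8.13 on the fatty liver arrays and 5.12, 6.27 and 5.66 on the healthy liver arrays, with a difference of 2.51 (SE 0.42, adjusted p = 0.00131), a 5.70-fold change. The narrow spread in fatty liver (SD 0.13, n = 3) stood beside a wide one in healthy liver (SD 0.58, n = 3). Mx2 (1.48), Ifit2 (1.39), Rsad2 (0.92, viperin), the mitochondrial nucleotide kinase gene Cmpk2 (0.79) and the exonuclease gene Isg20 (0.70) also passed.

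The 5 effectors that did not pass were Ifit1, Ifitm3, Bst2, Samd9l and Ifit3. Ifit1, whose protein binds viral RNA with an unmethylated cap, was 10.58, 10.60 and 10.56 in fatty liver and 9.91, 9.97 and 9.90 in healthy liver. Its groups were far apart for their own spread, but the SE pools the spread of all 4 groups (difference 0.65, SE 0.32, adjusted p = 0.11). The SD of Ifit1 was 0.86 in fatty liver under anti-VEGF and 0.02 to 0.07 in the other groups. Bst2 (tetherin), which holds budding viruses at the cell surface and also marks mouse plasmacytoid dendritic cells, was 9.04, 8.96 and 8.85 in fatty liver and 9.04, 8.94 and 9.14 in healthy liver.

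Those Bst2 groups overlapped, and the difference was -0.09 (SE 0.14, adjusted p = 0.63). Samd9l, a restriction factor of poxviruses, likewise overlapped, at 7.60, 7.79 and 7.63 in fatty liver and 7.79, 7.51 and 7.77 in healthy liver. Ifit3 had the lowest difference of all members, -0.11 (SE 0.17, adjusted p = 0.621), with 6.25, 6.04 and 6.44 in fatty liver and 6.72, 6.32 and 6.02 in healthy liver.

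In the Isg15 system 4 of 5 members rose. Isg15 itself was 7.95, 8.39 and 7.98 in fatty liver and 6.92, 7.11 and 7.06 in healthy liver, with no overlap (difference 1.08, SE 0.34, adjusted p = 0.0224). Uba7, the enzyme that activates Isg15, rose by 1.19, the conjugating enzyme Ube2l6 by 0.68 and the mouse Isg15 ligase Herc6 by 0.54. Usp18, which removes Isg15 and dampens the receptor, did not pass (0.48, SE 0.30, adjusted p = 0.208), although its fatty liver arrays at 11.38, 11.74 and 11.42 all lay above the healthy liver arrays at 11.00, 11.06 and 11.04. The SD of Usp18 was 0.80 in fatty liver under anti-VEGF, which enters the pooled SE, and 0.02 to 0.20 in the other groups.

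Of the 6 sensor genes 4 rose. Zbp1, a sensor of nucleic acids in the Z form, had a difference of 1.96 (SE 0.34), Dhx58 (LGP2) of 1.58 (SE 0.24), Ifih1 (MDA5) of 1.07 (SE 0.24) and Trim25, a ubiquitin ligase of RNA sensing, of 0.84 (SE 0.14). Ddx58, the gene of the RNA sensor RIG-I, was 10.93, 10.99 and 10.93 in fatty liver and 10.92, 10.77 and 10.87 in healthy liver. The groups nearly met, and the difference of 0.10 (SE 0.17) did not pass, nor did that of the RNA-dependent kinase gene Eif2ak2 (0.18, SE 0.17). Among the remaining members Parp14 (1.22), the receptor transporter gene Rtp4 (0.75), Lgals3bp (0.65), Ifi35 (0.48) and Parp9 (0.46) rose, while Xaf1, a partner of the apoptosis inhibitor XIAP, was 0.90 higher without passing (SE 0.37, adjusted p = 0.0628).

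The count of 26 rested on the labelled number of replicates. With near-identical arrays averaged, which left 8 arrays, 1 member, Ifit2, was higher (4.47% of all genes), and on the 8 arrays low in Xist, with 1 vehicle array left per liver and its spread assumed to be like that of the anti-VEGF groups, it was again Ifit2 alone (4.74% of all genes).

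**Figure D2:**
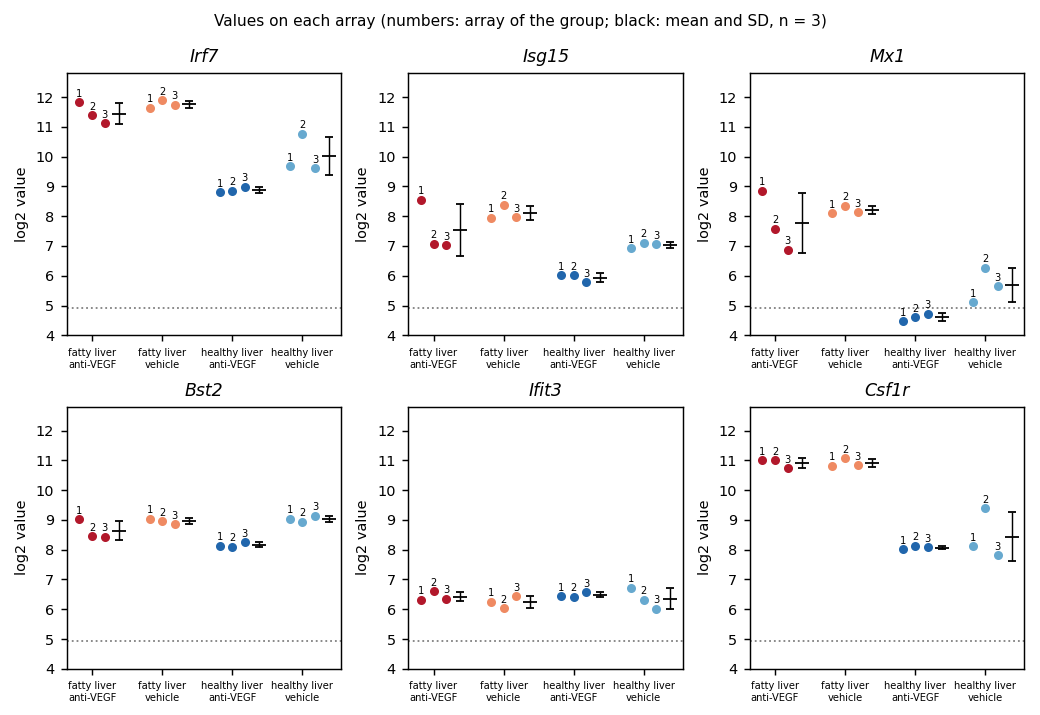
Log2 values of 6 genes on each of the 12 arrays, with the group mean and SD (n = 3) in black and the limit of 4.93 as a dotted line. Irf7, Isg15 and Mx1 are higher in both fatty liver groups than in the healthy liver group with the same treatment, Bst2 is lowest in healthy liver under anti-VEGF, Ifit3 is flat, and the macrophage gene Csf1r separates the livers.

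Under anti-VEGF, the question was the same and the differences were larger. Of the 35 members 31 rose in fatty liver, 0 fell and 4 did not pass, against 18.2% of all genes higher and 27.6% lower. The median difference was 1.41, with quartiles of 0.86 and 1.97, while that of all genes was -0.13. The groups did not overlap for 33 members, fatty above healthy, and for 21.9% of all genes. At an unadjusted p below 0.05, 33 were higher and 0 lower, against 20.4% and 34.1%. The comparison shares no array with that under vehicle, although both use the same estimate of spread. Ifit1, Ifitm3, Bst2, Usp18, Ddx58 and Xaf1 passed under anti-VEGF only, Isg20 under vehicle only, and Ifit3, Eif2ak2 and Samd9l in neither.

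The regulators again all rose. Irf7 was 11.84, 11.39 and 11.11 in fatty liver against 8.81, 8.86 and 9.0 in healthy liver, so that the lowest fatty liver array stood more than 2 log2 units above the highest healthy liver array (difference 2.56, SE 0.28, adjusted p = 9.46e-05). Stat2 was 10.74, 9.80 and 9.74 in fatty liver and 8.19, 8.17 and 8.24 in healthy liver, and Irf9 was 9.98, 9.56 and 9.46 against 8.79, 8.77 and 8.66. Their differences were 1.90 (SE 0.25) and 0.92 (SE 0.13).

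All 4 tested oligoadenylate synthetase genes rose, by 1.65 (Oasl2) to 2.47 (Oas2). Oas2 was 10.99, 10.06 and 9.62 in fatty liver and 7.68, 7.71 and 7.88 in healthy liver, where the 3 arrays differed little. Of the effectors 8 of 11 rose, now including Ifit1 and Bst2.

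Mx1 had again the largest difference, 3.16 (SE 0.42, adjusted p = 0.00032), from 8.86, 7.58 and 6.88 in fatty liver against 4.48, 4.62 and 4.73 in healthy liver. The healthy liver mean of Mx1, 4.61, and that of Mx2, 4.90, lay below the limit of 4.93. That limit is the table's median and not a measure of background. Whether these differences understate the true ones could therefore not be judged. Ifit1 was 10.93, 9.75 and 9.25 in fatty liver and 8.77, 8.81 and 8.90 in healthy liver, with array 3 of fatty liver close to the healthy liver arrays (difference 1.15, SE 0.32, adjusted p = 0.0148). Bst2 was 9.02, 8.46 and 8.44 against 8.14, 8.10 and 8.25, with no overlap (0.48, SE 0.14, adjusted p = 0.0216).

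All 5 members of the Isg15 system rose. Isg15 was 8.56, 7.07 and 7.02 in fatty liver and 6.01, 6.03 and 5.78 in healthy liver, with array 1 of fatty liver far above the other arrays of its group (1.61, SE 0.34, adjusted p = 0.00398). Usp18 was 11.67, 10.88 and 10.06 against 9.76, 9.78 and 9.81, and its difference of 1.09 (SE 0.30) passed here.

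Of the sensors 5 of 6 rose, led by Zbp1 at 3.06 (SE 0.34, adjusted p = 0.000107), which was 10.45, 9.78 and 9.64 in fatty liver and 6.77, 6.92 and 6.99 in healthy liver. The exception was Eif2ak2 (0.44, SE 0.17, adjusted p = 0.063). All 6 other tested members rose, by 0.66 (Ifi35) to 2.15 (Parp14), among them Xaf1 (1.40). The members that did not pass besides Eif2ak2 were Isg20 (0.44), Samd9l (0.27) and Ifit3 (-0.06). With near-identical arrays averaged, 5 members were higher, Irf7, Ifit2, Lgals3bp, Dhx58 and Zbp1 (3.67% of all genes).

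**Figure D3:**
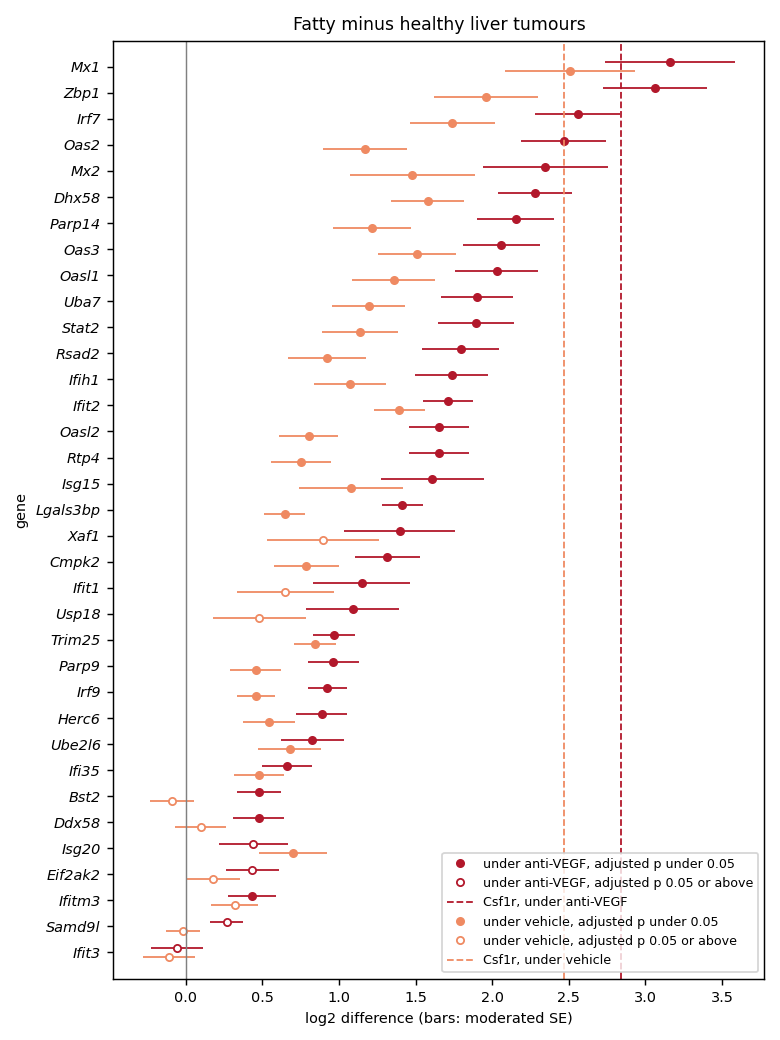
Log2 differences, fatty minus healthy liver, of the 35 genes under anti-VEGF (dark red) and under vehicle (orange), with moderated standard errors. Filled points passed an adjusted p of 0.05, the dashed lines mark the difference of Csf1r, 2.84 under anti-VEGF and 2.47 under vehicle, and 34 genes have the larger difference under anti-VEGF, Isg20 being the exception.

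The next question was how the members differed with anti-VEGF within each liver. In healthy liver 34 of the 35 differences were below 0 and nearly all groups were separate, but no member passed over all genes. The median difference was -0.97, against 0.005 for all genes, and it ranged from -1.46 (Oas2) to 0.13 (Ifit3). In the limma fit of all 12 arrays 0 members were lower and 0 higher, as were 0% of all genes in either direction. At an unadjusted p below 0.05, 31 members were lower and 0 higher, against 4.93% and 3.48% of all genes. All 3 anti-VEGF arrays lay below all 3 vehicle arrays for 33 members, against 11.7% of all genes.

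Oas2 was 7.68, 7.71 and 7.88 under anti-VEGF and 9.05, 9.52 and 9.07 under vehicle, a difference of -1.46 (SE 0.28, adjusted p = 0.141). Rtp4 was 7.35, 7.39 and 7.31 under anti-VEGF and 8.46, 8.90 and 8.64 under vehicle. Its adjusted p of 0.0754 (difference -1.32, SE 0.19) and that of Lgals3bp, a secreted glycoprotein that binds galectins (0.0754, difference -0.89, SE 0.13), were the lowest of the members.

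Irf7 was 8.81, 8.86 and 9.0 under anti-VEGF, against 9.67, 10.77 and 9.62 under vehicle (-1.13, SE 0.28, adjusted p = 0.252). Isg15 was 6.01, 6.03 and 5.78 against 6.92, 7.11 and 7.06 (-1.09, SE 0.34), and Ifit1 8.77, 8.81 and 8.90 against 9.91, 9.97 and 9.90 (-1.10, SE 0.32). In these genes the gap between the groups was several times the spread within either group, except for the vehicle arrays of Irf7, where array 2 stood above arrays 1 and 3. The near-identical arrays in both groups can make that spread too small a measure of the variation between mice. Ifit3 was 6.44, 6.43 and 6.58 under anti-VEGF and 6.72, 6.32 and 6.02 under vehicle, the only positive difference.

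Because the shared estimate of spread includes the uneven fatty liver anti-VEGF group, the 6 healthy liver arrays were also fitted alone, an alternative added after seeing the data. Then 13 members were lower under anti-VEGF in limma, against 0.211% of all genes, 28 genes in all. They were Irf9, Oasl2, Oas2, Oas3, Ifit1, Isg15, Usp18, Rsad2, Bst2, Rtp4, Ddx58, Ifih1 and Cmpk2, with adjusted p-values of 0.00642 (Usp18) to 0.0385 (Ddx58). In the fit of all groups 17 members were lower without fatty liver anti-VEGF array 1 (0.248% of all genes), 9 without its array 3 (0.166%), and 0 on leaving out any other array. On the arrays low in Xist, where the vehicle group of healthy liver is array 2 alone, 5 were lower: Irf7 (-1.88), Ifit2 (-1.16), Rtp4 (-1.56), Lgals3bp (-1.24) and Zbp1 (-2.23). Of all genes 5.26% were lower in that setting, against 0% with all 12 arrays. With near-identical arrays averaged 0 were lower, and the 3 anti-VEGF arrays then count as 1.

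In fatty liver the same sign prevailed with smaller values. Of the 35 differences 34 were below 0, with a median of -0.29 against 0.01 for all genes, and a range from -0.81 (Xaf1) to 0.18 (Ifit3). No member passed (0% of all genes higher, 0.00753% lower), and at an unadjusted p below 0.05 there were 3 lower and 0 higher, against 3.44% and 2.42% of all genes. Only Ifit2 had all anti-VEGF arrays, 7.63, 7.31 and 7.08, below all vehicle arrays, 7.80, 8.12 and 7.80, against 4.99% of all genes, and 0 members had them all above (3.07%; -0.57, SE 0.17, adjusted p = 0.795). Xaf1 was 9.98, 8.66 and 8.27 under anti-VEGF and 9.50, 10.07 and 9.77 under vehicle, so array 1 lay among the vehicle arrays. Without that array, fatty liver anti-VEGF array 1, 3 members were lower: Ifit1 (-1.08), Isg15 (-1.06) and Cmpk2 (-0.82), each at an adjusted p of 0.0473, against 0.0602% of all genes. The median of the members was -0.52 without that array and -0.08 without array 3 of the same group.

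Whether the treatment difference depended on the liver was tested as an interaction. No member passed, nor did any gene (0% in either direction). The interaction was above 0 for 34 members, with a median of 0.55 against 0.02 for all genes. Leaving out array 1 of the fatty liver anti-VEGF group gave a median of 0.23, and leaving out its array 3 gave 0.83. It was largest for Oas2 (1.30, SE 0.39, adjusted p = 0.876) and lowest for Isg20 (-0.26, SE 0.32, adjusted p = 0.98). Lgals3bp had the lowest adjusted p, 0.763 (0.77, SE 0.19). At an unadjusted p below 0.05, 9 members were positive and 0 negative, against 2.06% and 3.03% of all genes. The larger difference between livers under anti-VEGF was therefore not established for any member.

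**Figure D4:**
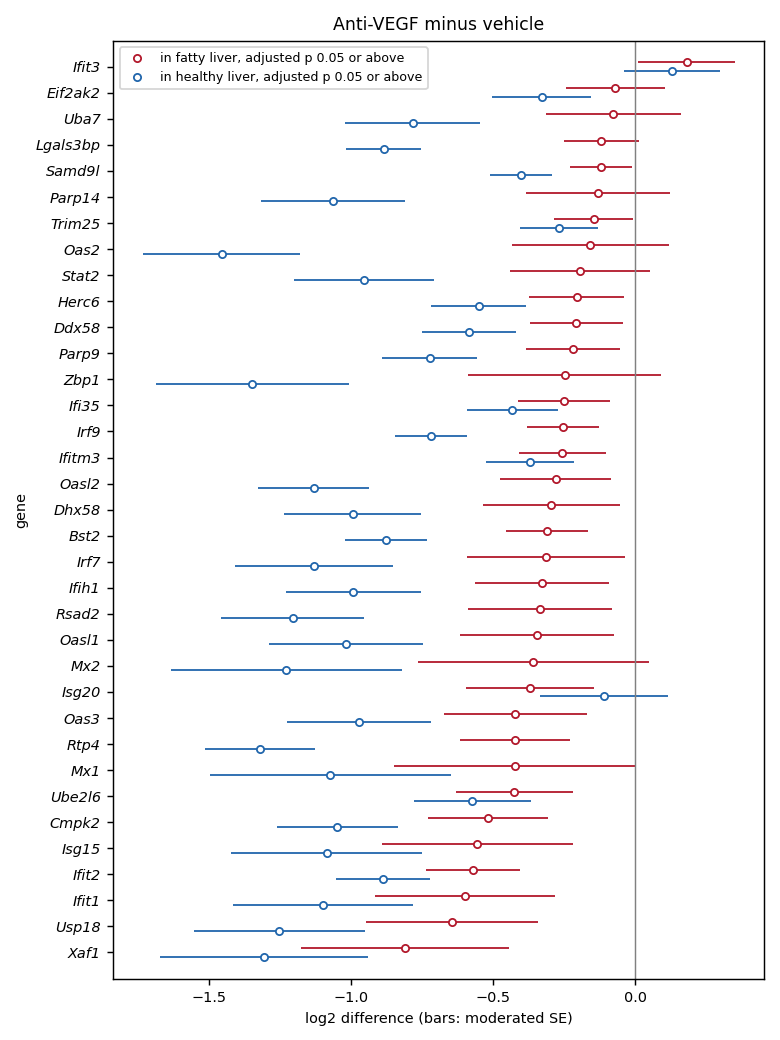
Log2 differences, anti-VEGF minus vehicle, of the 35 genes in fatty liver (red) and in healthy liver (blue), with moderated standard errors. All points are open because none passed an adjusted p of 0.05, and the healthy liver points lie further below 0 (median -0.97) than the fatty liver points (median -0.29).

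The members were also described relative to Csf1r, which encodes a growth factor receptor of macrophages, by subtracting its log2 value on the same array. Csf1r was 11.01, 11.00 and 10.73 in fatty liver under anti-VEGF and 10.82, 11.06 and 10.84 under vehicle. In healthy liver it was 8.01, 8.13 and 8.08 under anti-VEGF and 8.12, 9.38 and 7.82 under vehicle, where array 2 stood apart. Csf1r thus differed between livers by 2.84 (SE 0.31) under anti-VEGF and 2.47 (SE 0.31) under vehicle. Few members matched it: Mx1 alone exceeded it under vehicle, and Mx1 and Zbp1 under anti-VEGF.

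On that scale most members were lower in fatty liver, as were most genes. Under vehicle 32 of 35 were lower and 0 higher, against 94.6% and 0.331% of 13285 genes. The median of the members was -1.67 and that of all genes -2.59. Irf7 (-0.73, SE 0.39), Zbp1 (-0.51, SE 0.39) and Mx1 (0.04, SE 0.41) did not pass. Under anti-VEGF 27 were lower and 0 higher, against 95.4% and 0.158% of all genes, with a median of -1.43 against -2.97. All fatty liver arrays lay below all healthy liver arrays for 34 members under vehicle, against 95.2% of all genes, and for 30 under anti-VEGF, against 96.3%, and above them for 0 in either (0.655% and 0.474%). At an unadjusted p below 0.05 the counts were 32 lower under vehicle (94.7%) and 27 under anti-VEGF (95.4%).

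The 8 that did not pass there were Irf7 (-0.28), Mx1 (0.32), Zbp1 (0.22), Dhx58 (-0.56), Mx2 (-0.49), Oas2 (-0.37), Oas3 (-0.78) and Parp14 (-0.69). The error of Csf1r itself enters every gene on this scale, so these adjusted p-values do not cover a deviation shared through Csf1r. Irf7 minus Csf1r was 0.83, 0.82 and 0.91 in fatty liver under vehicle and 1.55, 1.38 and 1.80 in healthy liver, without overlap. Mx1 minus Csf1r was -2.71 on each fatty liver vehicle array and -2.99, -3.11 and -2.16 in healthy liver, on both sides of the fatty liver value.

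Relative to Csf1r, 0 members passed with treatment in healthy liver (0.00753% of all genes higher, 0% lower), in fatty liver (0.0151% higher, 0.0226% lower) or in the interaction (0% in either direction). The medians of the members were -0.61, -0.30 and 0.18, against 0.37, 0.00 and -0.35 for all genes. These medians rested on single arrays. Without healthy liver vehicle array 2 that of all genes was -0.13 in healthy liver and 0.14 in the interaction, and that of the members -0.89 and 0.58. The members' median in the interaction was -0.10 without fatty liver anti-VEGF array 1, 0.37 without its array 3, 0.31 without its array 2, 0.05 without healthy liver vehicle array 1 and -0.08 without its array 3. In healthy liver it was -0.34 without vehicle array 3, where that of all genes was 0.70. In fatty liver it was -0.48 without anti-VEGF array 1 and -0.17 without array 3. At an unadjusted p below 0.05, 7 members were lower in healthy liver and 0 higher (0.738% and 0.851% of all genes), and 0 passed in fatty liver (1.08% lower, 0.151% higher) or in the interaction (0.805% lower, 0.211% higher). In healthy liver 7 members kept the groups apart, anti-VEGF below vehicle (2.03% of all genes), where 33 did so before the subtraction, and in fatty liver 3 did (5.89%). With the Csf1r level of the array as a covariate instead, 0 members were higher in fatty liver under either treatment, against 0.331% of all genes under vehicle and 0.406% under anti-VEGF. Csf1r was at least 10.73 on every fatty liver array and at most 9.38 on every healthy liver array. The covariate and the liver can therefore hardly be told apart, and these counts do not show whether members differed between livers beyond Csf1r.

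**Figure D5:**
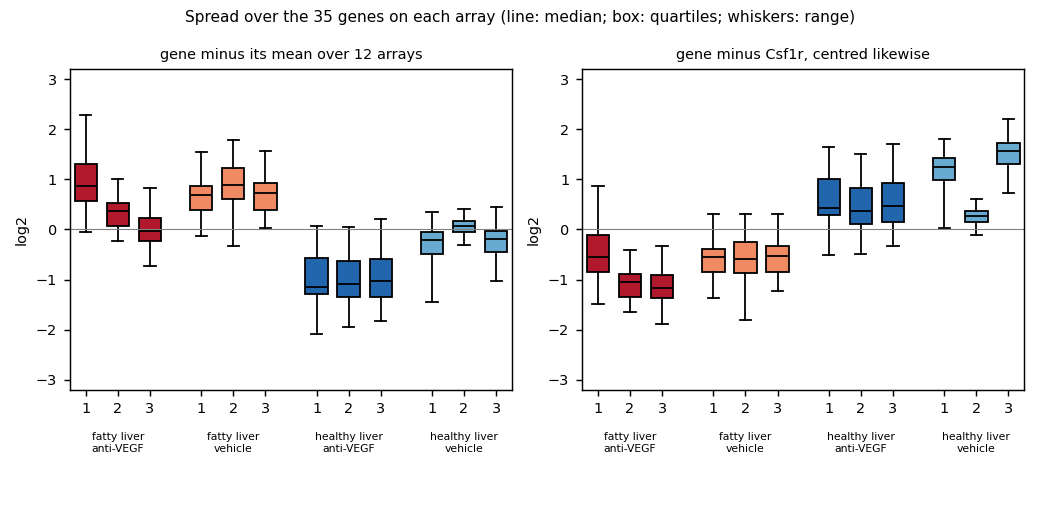
Spread of the 35 genes on each array, as log2 values centred on each gene's mean over 12 arrays (left) and after subtracting Csf1r and centring likewise (right). Lines are medians, boxes quartiles and whiskers the range; in the fatty liver anti-VEGF group array 1 lies highest and array 3 lowest on the left, and vehicle array 2 of healthy liver lies below arrays 1 and 3 on the right.

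The spread of the members differed between groups. The median SD of a member was 0.49 in fatty liver under anti-VEGF, against 0.21 over all genes, and 0.13 under vehicle, where all genes had 0.13. In healthy liver it was 0.07 under anti-VEGF and 0.18 under vehicle, beside 0.07 and 0.15 for all genes. The widest SD in fatty liver under anti-VEGF was that of Mx2, 1.04, from 8.32, 7.17 and 6.25, and the narrowest that of Lgals3bp, 0.12.

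In that group array 1 was the highest for 34 of 35 members and array 3 the lowest for 34. The median difference between arrays 1 and 3 was 0.95, and 36.8% of all genes were higher on array 1 than on array 3. The shares were 39.4% higher on array 1 than on array 2 and 42.4% higher on array 2 than on array 3. Markers of other cells also differed between these arrays. The mean of the 7 tested of 11 neutrophil markers was 9.86, 7.50 and 6.10 on arrays 1, 2 and 3, that of the 14 of 16 T and NK cell markers 8.24, 7.86 and 5.73, and that of the 10 of 12 endothelial markers 7.67, 6.51 and 6.46.

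The 21 of 22 macrophage markers, Csf1r among them at 11.01, 11.00 and 10.73, had means of 11.02, 11.13 and 10.80. These means were highest on array 2 and lowest on array 3. Highest on array 2 were also the means of the 5 of 7 B cell markers (6.61, 7.35 and 7.13) and of the 9 of 10 plasmacytoid dendritic cell markers (6.10, 6.50 and 5.20). The 9 of 10 fibroblast markers averaged 8.98, 7.48 and 7.81, and the 8 of 16 tumour epithelial markers 6.34, 6.31 and 5.97. Ifnb1, the interferon beta gene, was 6.38 on array 1, the only array of the 12 above the limit, and 4.23 and 3.08 on arrays 2 and 3. It therefore did not pass the filter. The 8 tested of 20 interferon genes averaged 6.55, 6.47 and 6.21 on arrays 1, 2 and 3. Their highest mean, 6.62, was on fatty liver vehicle array 2, so they did not single out array 1. The part of these markers in the spread of the members was not tested.

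Under vehicle in fatty liver, array 2 was the highest for 31 members, and in healthy liver array 2 was the highest for 29. Of all genes, 52% were higher on array 1 than on array 2 in fatty liver, and 49% on array 2 than on array 3. In healthy liver these shares were 63.2% and 36.1%. On healthy liver vehicle array 2 the endothelial mean was 9.28, against 6.17 on array 1 and 6.23 on array 3, and the macrophage mean 9.94 against 8.93 on both. The mean over the 35 members was 9.12 on that array and 8.80 and 8.81 on the others. The part of these markers was not tested here either. Leaving out that array and fatty liver anti-VEGF array 3 together gave 28 members higher under vehicle (21.5% of all genes) and 34 under anti-VEGF (21.3%). Other arrays moved the difference between livers the other way. The members' median under anti-VEGF was 1.74 without fatty liver anti-VEGF array 3 but 1.10 without its array 1. Under vehicle it was 0.90 without healthy liver vehicle array 2 but 0.75 without fatty liver vehicle array 2.

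The rest of the pathway was read from lists of genes around the members. Beside the counts of these lists, 18.2% of all genes tested were higher in fatty liver and 27.6% lower under anti-VEGF. Under vehicle the shares were 19.2% and 30.4%. Of 9 tested genes of interferon receptors and their JAK and STAT partners, 8 rose in fatty liver under each treatment and 0 fell. Ifnar1 was 1.13 higher under anti-VEGF and 1.09 under vehicle (SE 0.16 each), and Ifnar2 1.58 and 1.29 (SE 0.20 each). Il10rb, a chain shared with the interferon lambda receptor, had the lowest p, at 2.58 and 2.04 (SE 0.24 each). All 5 tested interferon regulatory factors outside the members rose in both, among them Irf8 (2.52 and 1.97), a factor of macrophages and dendritic cells, Irf1 (1.29 and 0.70) and Irf3 (0.41 and 0.42).

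Of 13 sensors and adaptors outside the members 10 rose in each comparison and 0 fell. They were led by the endosomal receptors Tlr13 (3.09 under anti-VEGF and 2.55 under vehicle), Tlr7 (3.04 and 2.57), Tlr8 (3.15 and 2.40) and Tlr9 (2.03 and 1.67). Of 14 negative regulators 9 rose and 1 fell under anti-VEGF and 7 rose and 1 fell under vehicle, with Ptpn6, a phosphatase of blood cells, at 2.67 and 2.04. Of 51 other interferon-induced genes 44 rose and 2 fell under anti-VEGF and 37 rose and 3 fell under vehicle, with medians of 1.33 and 0.94. Epsti1 was among them (3.13 and 2.68).

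The interferons themselves were mostly not measured above the limit: 8 of the 20 listed were tested. Ifng, the type II interferon of T and NK cells, rose by 1.66 under anti-VEGF and 1.98 under vehicle, and Ifna1 was the only one to fall, by 0.48 under anti-VEGF. In both treatment comparisons 0 genes of these lists passed, and over all genes only 0.00753% did, lower in fatty liver. The median of the other interferon-induced genes was -0.52 in healthy liver and -0.18 in fatty liver.

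Cell type markers differed between livers as well, and their counts stand beside the same shares of all genes. Of 21 macrophage markers 20 rose under each treatment, with medians of 2.43 under anti-VEGF and 1.92 under vehicle. Their mean ranged from 10.80 to 11.13 in fatty liver under anti-VEGF and from 11.07 to 11.19 under vehicle, and in healthy liver from 8.74 to 8.77 under anti-VEGF and from 8.93 to 9.94 under vehicle. Of 14 T and NK cell markers 11 rose under anti-VEGF and 14 under vehicle. Under each treatment 3 of 7 neutrophil markers rose and 0 fell, and of 5 B cell markers 3 rose and 2 fell. Under each, 1 of 8 tumour epithelial markers rose and 3 fell, and of 9 fibroblast markers 0 rose and 2 fell. Of 10 endothelial markers 2 rose and 0 fell under anti-VEGF, and 1 rose and 1 fell under vehicle. Of 4 hepatocyte markers 0 rose and 2 fell under anti-VEGF, Apoc3 (-0.40) and Apoa1 (-0.35), and 0 rose and 0 fell under vehicle. Of 9 markers of plasmacytoid dendritic cells, which secrete type I interferon, 4 rose and 2 fell under anti-VEGF and 7 rose and 1 fell under vehicle. Siglech, a receptor of those cells, was 6.13, 6.19 and 4.65 in fatty liver under anti-VEGF and 7.02, 6.50 and 6.68 under vehicle, against 4.65 to 4.96 on all healthy liver arrays. The part of these cell types in the differences of the members was not tested.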

How the data were processed

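RNA of mouse colorectal cancer tissue from 12 samples was hybridised to whole-transcript arrays. The authors deposited log2 expression values, 1 column per array, made with Affymetrix Expression Console per the submitters' processing notes; the sources used here give neither its version nor the normalization or build, and the log2 scale was read from the values. Each sample was grouped by its title, and members, gene lists and most alternatives were chosen with earlier results of these data known.

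A model over all genes gave each group its own mean. It was fitted with lmFit and eBayes of limma 3.58.1 in R 4.3.3 and had 8 residual and 2.40 prior degrees of freedom. Calls used a Benjamini-Hochberg adjusted p of 0.05 over all genes tested. The same model was fitted after subtracting the log2 value of Csf1r, with 64.9 prior degrees of freedom. The code was run on simulated data with independent noise. Such data lack the near-identical arrays and the uneven group found here, so they do not show how reliable the calls are. Alternatives changed the filter, normalization, row per gene, replicate block, array weights, near-identical arrays (SD of the difference below 0.2), Xist level, the Csf1r covariate, the arrays fitted and each array in turn.

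The labels call the replicates biological, and p-values measure only the spread between these samples. Replicate numbers are shared between groups: between the vehicle groups the 3 pairs of arrays with a shared number had correlated deviations (0.54, 0.70 and 0.55), and no other groups had all pairs above 0.1, which comes from the data alone; array 1 of either group correlated as highly with array 3 of the other (0.57 and 0.55), so this was not specific to a shared number. All 39 members could be named. Values on every array were given for the largest and smallest difference of a comparison, for Irf7, Stat2, Irf9, Isg15, Ifit1 and Mx1, and for members that went against most of the list. Further members were shown by array after their values were seen. From the other lists up to 4 genes by smallest p and a fixed set were named. Promoter sequences are RefSeq's, on GRCm38.p6.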

Additional observations from a re-analysis of the deposited data

How the results depend on the processing

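Of 7875 values of single members recomputed under the alternatives, 7381 kept their direction and side of the threshold, 252 lost their call, 227 gained one and 15 reversed. Leaving out each array in turn gave 20 to 30 members higher in fatty liver under vehicle and 28 to 34 under anti-VEGF. In these fits 4689 to 7337 and 4274 to 7475 of 13286 genes were called in either direction. Leaving out arrays gave 0 to 17 members lower with anti-VEGF in healthy liver and 0 to 3 in fatty liver, with 0 to 41 and 0 to 11 genes called. Relative to Csf1r it gave 29 to 34 lower in fatty liver under vehicle and 23 to 30 under anti-VEGF. There 12486 to 12829 and 12591 to 12860 of 13285 genes were called. With near-identical arrays averaged, 1 member was higher under vehicle and 5 under anti-VEGF, and relative to Csf1r 21 and 17 were lower (90.8% and 92.8% of all genes). On arrays low in Xist 1 was higher under vehicle, 5 were lower with anti-VEGF in healthy liver, and relative to Csf1r 15 were lower under vehicle (90.2% of all genes), 9 higher and 2 lower with anti-VEGF in healthy liver (88.7% and 1.94%), and 9 lower in the interaction (69.5%). With array weights 31 members were lower with anti-VEGF in healthy liver (7.5% of all genes), and relative to Csf1r 30 were lower there (4.28%), 16 lower in fatty liver (6.1%) and 5 higher in the interaction (0.753%). Without healthy liver vehicle array 2 and fatty liver anti-VEGF array 3 together, 4 were lower with anti-VEGF in healthy liver (0.211%), and relative to Csf1r 15 were lower there (0.406%) and 1 was higher in fatty liver under anti-VEGF (1.02%). With Csf1r as a covariate, which can hardly be told apart from the liver, 0 were higher under vehicle (0.331%) and 0 under anti-VEGF (0.406%). With it 1, Lgals3bp, was lower with anti-VEGF in healthy liver (0.0527% of all genes). With the groups compared alone 13 were lower there. That covariate turned the difference between livers under vehicle to -0.25 for Irf7, -0.0386 for Rtp4, -0.23 for Lgals3bp, -0.44 for Zbp1, -0.21 for Parp9, -0.016 for Parp14, -0.22 for Ube2l6 and -0.0493 for Uba7, and that under anti-VEGF to -0.35 for Ifitm3 and -0.21 for Ube2l6. On arrays low in Xist the difference with anti-VEGF in healthy liver relative to Csf1r turned to 0.81 for Ddx58, 0.86 for Ifi35, 0.75 for Ifitm3, 1.09 for Samd9l and 0.79 for Herc6. Averaging and leaving out arrays leave fewer samples, and for the other settings the cause was not tested. With the replicate block 26 members were higher under vehicle and 31 under anti-VEGF, as without it. In that setting 6671 and 6259 of 13286 genes were called in either direction. Single calls under vehicle that were lost on leaving out 1 array were those of Isg15, Isg20, Ifi35, Parp9, Herc6 and Ube2l6, and under anti-VEGF those of Bst2, Ddx58 and Ifitm3. Without a measure of background, low values could not be judged.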

Other observations

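Rows that 2 genes share were left out of the tests, and their values are given here. The row of Ifi27l2a and Ifi27l2b averaged 7.49 ± 0.71 in fatty liver under anti-VEGF and 8.0 ± 0.25 under vehicle, and 5.47 ± 0.33 in healthy liver under anti-VEGF and 6.96 ± 0.21 under vehicle (log2, SD, n = 3 each). The row of Dtx3l and Parp9, whose proteins form a complex, averaged 9.69 ± 0.31 and 9.90 ± 0.14 in fatty liver, and 8.54 ± 0.06 and 9.16 ± 0.10 in healthy liver, in the same order of treatments. The row of Oas1a and Oas1g averaged 7.89 ± 0.53 and 7.96 ± 0.24 in fatty liver, and 6.74 ± 0.17 and 7.31 ± 0.22 in healthy liver. In all 3 rows the 3 healthy liver anti-VEGF arrays lay below every other array.

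The second row of Lgals3bp was 8.95, 9.10 and 8.86 in fatty liver under anti-VEGF and 9.14, 9.10 and 9.08 under vehicle, and 7.49, 7.52 and 7.43 in healthy liver under anti-VEGF and 8.11, 8.40 and 7.93 under vehicle, in the same order of groups as the row used. The second row of Ifi35 was 4.83 to 5.39 in fatty liver and 5.05 to 5.40 in healthy liver, near the limit on all arrays.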
